A study of Homo sapiens with 18 samples.

Results

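Epithelial-mesenchymal transition genes were examined in MDA-MB-231 cells after knockdown of fibrillarin. The genes were taken by name, with earlier results of these data known, and no measured value enters the rule: the transcription factors ZEB1, ZEB2, SNAI1, SNAI2 and TWIST1, the cadherins CDH1 and CDH2, the intermediate filament gene VIM, the matrix gene FN1 and the surface receptor gene CD44. Of these 10 genes, 9 were among the 17017 genes with counts, and TWIST1 was not analysed here. MDA-MB-231 is an established human line of triple-negative breast carcinoma. Fibrillarin (FBL) is the nucleolar methyltransferase that places 2'-O-methyl groups on ribosomal RNA. Every group came from this line after lentiviral transduction and selection with puromycin at 1 µg/ml for 96 h, and was exposed to cycloheximide at 100 µg/ml for 5 min before lysis. The groups were SC, read here as the scramble control, and SH2 and SH3, which carry different short hairpin RNAs against FBL mRNA. Cytoplasmic RNA and ribosome footprints were sequenced with 3 replicates of each treatment, 18 libraries in all. The labels do not say whether replicates were separate cultures, so p-values measure the spread between these samples, which may be technical. The SC libraries serve both hairpins as the control, which ties the changes of SH2 and SH3 to each other.

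In this transition, epithelial cells lose E-cadherin junctions and apical-basal polarity and take on a spindle shape, a vimentin filament network and a fibronectin matrix. ZEB and SNAIL family repressors bind E-box sequences in the control regions of epithelial genes, E-cadherin among them. MDA-MB-231 is known as a line of mesenchymal character that lacks E-cadherin and carries much vimentin and CD44.

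Total counts per library ran from 23469830 to 27629488 in RNA and from 1662705 to 6098648 in footprints. FBL RNA stood at 1.46% of the SC mean in SH2 and 0.898% in SH3, and its footprints at 4.70% and 2.09%. ESR1, PGR and GRHL2, markers of hormone receptor-positive and epithelial cells, had at most 2 counts in any library. In SC RNA, KRT8, KRT18 and EGFR, which this line expresses, stood at 530 ± 37.2, 494 ± 25.3 and 197 ± 25.9 CPM, while ERBB2 stood at 95.3 ± 8.54, GATA3 at 8.03 ± 0.487, FOXA1 at 1.09 ± 0.063 and EPCAM at 5.66 ± 0.670 CPM (SD, n = 3). Of other epithelial genes, CLDN7 stood at 20.4 ± 4.58 and ESRP1 at 0.296 ± 0.0823 CPM in SC RNA (SD, n = 3). CPM is the count scaled by the library total and its TMM factor. CPM values are not corrected for transcript length, so no level is compared between genes. In these bulk samples fewer cells of a kind and less RNA per cell cannot be told apart.

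The ZEB1 and CDH2 promoters are shown because these are the members whose RNA was called lower with both hairpins, and because ZEB and SNAIL factors are known to bind the E-box CAGGTG. Promoter windows from RefSeq (GRCh38.p14), 250 bases before to 50 after an annotated start, were read for 6 of the 10 members: VIM, ZEB1, ZEB2, CDH2, FN1 and CD44. CDH1, SNAI1, SNAI2 and TWIST1 have no sequence shown. The 250 bases before the most upstream annotated start are printed 5′ to 3′ on the gene's strand, at chr10:31318167-31318416 on the plus strand for ZEB1 and chr18:28177131-28177380 on the minus strand for CDH2, with the motif in capitals.
ZEB1: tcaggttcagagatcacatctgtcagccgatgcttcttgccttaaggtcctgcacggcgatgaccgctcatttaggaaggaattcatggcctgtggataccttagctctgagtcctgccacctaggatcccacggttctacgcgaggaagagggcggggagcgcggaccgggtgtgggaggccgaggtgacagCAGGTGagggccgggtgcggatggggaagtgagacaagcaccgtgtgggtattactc
CDH2: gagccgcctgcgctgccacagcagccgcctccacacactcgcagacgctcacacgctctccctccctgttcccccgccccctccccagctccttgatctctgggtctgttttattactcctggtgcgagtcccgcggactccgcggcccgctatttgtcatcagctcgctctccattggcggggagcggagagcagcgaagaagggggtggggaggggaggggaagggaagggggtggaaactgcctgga
The motif CAGGTG was sought on both strands, the other strand reading as CACCTG. In the ZEB1 stretch it begins 57 bases before the start, and the CDH2 stretch does not contain these letters. Of 35116 windows of 300 bases, 20.6% hold the motif. Among the 6 members read, only ZEB1 holds it. ZEB1 has 7 such windows, from as many annotated starts. Its window 3 from upstream also holds the motif, 3 times, the first 242 bases before that start. The share is per window, and a gene with more windows has more places for a match. A match of letters is a description and shows no binding.

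The comparison of RNA with SC asks which of these genes change in transcript abundance after loss of fibrillarin. With SH2, CD44, FN1 and ZEB2 RNA rose and ZEB1 and CDH2 RNA fell. With SH3, ZEB1, CDH2 and SNAI2 fell. CDH2, encoding N-cadherin, had the deepest fall of the set with either hairpin, and ZEB1 fell to 60.5% of the SC mean in SH2 and 70.0% in SH3. Of the 9 members, 8 passed the filter on low counts in RNA, and CDH1 did not. In SH2, 3 members were called higher and 2 lower, where called means an adjusted p under 0.05 in edgeR's quasi-likelihood test, and over all 12710 genes tested 31.1% were called higher and 30.4% lower. In SH3, 3 members were called, each lower, against 27.8% of all genes higher and 25.2% lower. The SH2 count fell to 3 without SH2 replicate 2, and the SH3 count rose to 5 without SH3 replicate 2. The members' median log2 change was 0.30 in SH2 and -0.27 in SH3, beside 0.01 and 0.03 over all genes tested.

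**Figure D1:**
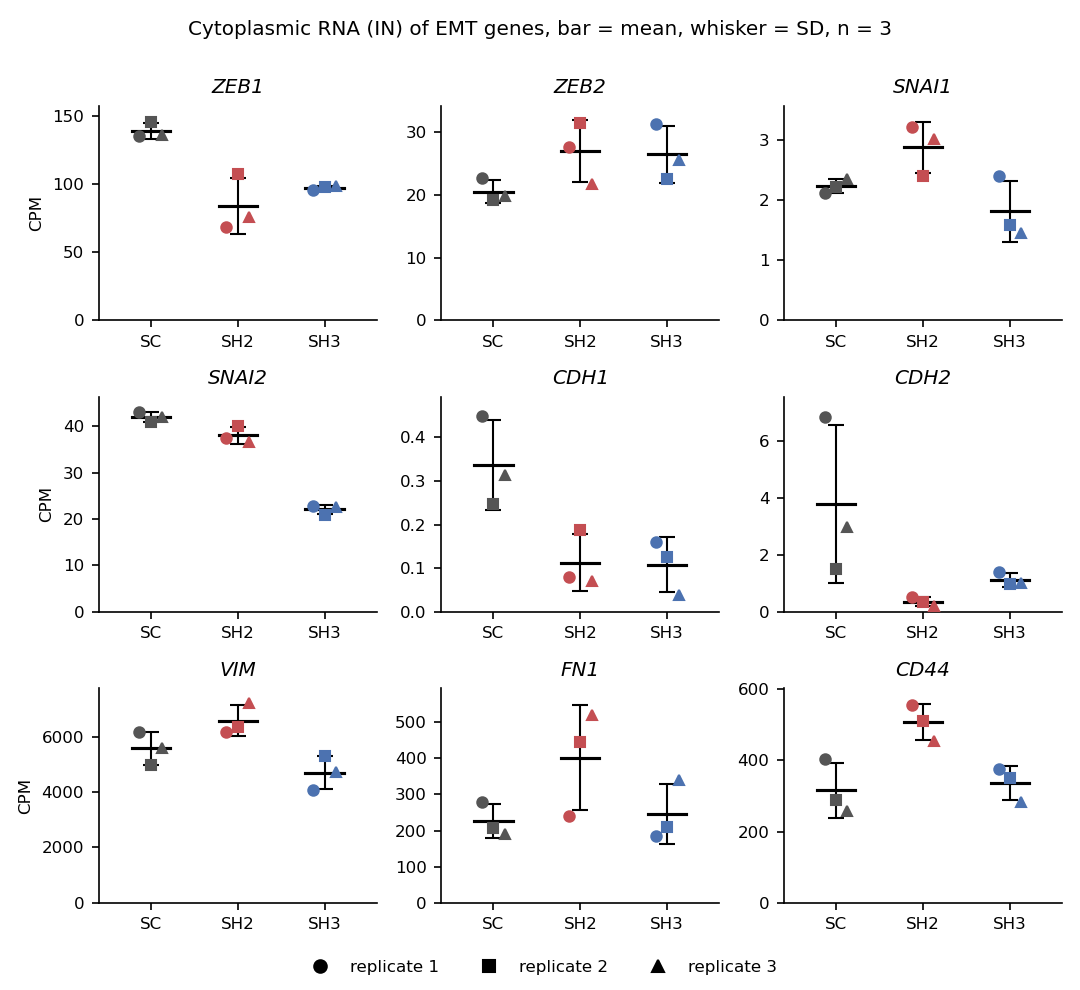
Cytoplasmic RNA level of each member (CPM, vertical axis, a separate linear scale for each gene) in SC, SH2 and SH3; points are replicates and bars the mean with its SD (n = 3). ZEB1 and CDH2 lie below every SC library with both hairpins, and CD44 lies above every SC library in SH2.

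Footprints are mRNA fragments that ribosomes protect from nuclease. Their level follows the number of ribosomes on all copies of a gene's mRNA, and so also the RNA level. In SH2, ZEB2, FN1 and CD44 footprints rose and ZEB1 footprints fell. In SH3, ZEB2 rose and SNAI2 fell. For footprints 7 members passed the filter, and CDH1 and CDH2 did not. The SH2 count of 3 members higher and 1 lower stands beside 21% and 23.2% of 10345 genes. The SH3 count of 1 higher and 1 lower stands beside 16.9% and 19%. It became 5 without SC replicate 2, and 1 without SC replicate 3 or SH3 replicate 2. The members' median log2 footprint change was 0.33 in SH2 and 0.36 in SH3, against -0.00415 and -0.01 over all genes.

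**Figure D2:**
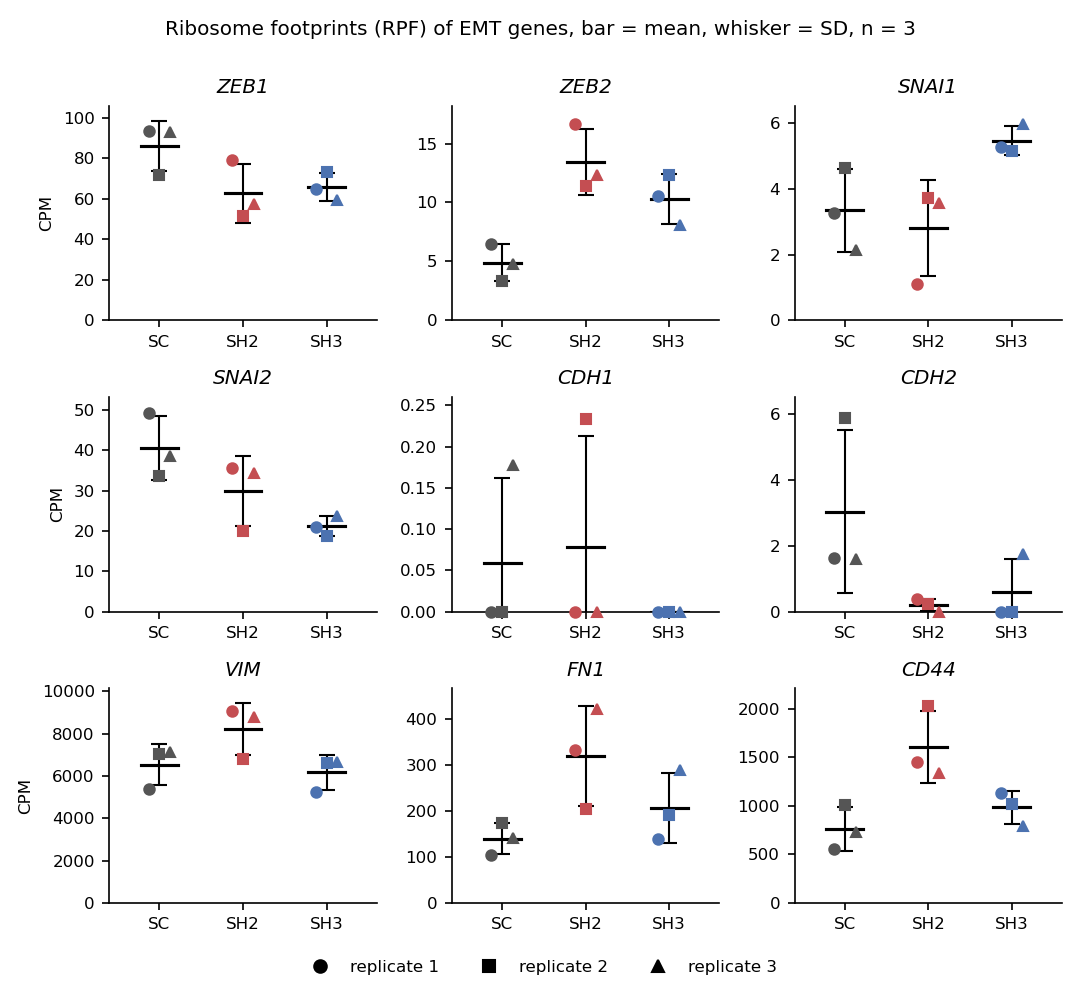
Ribosome footprint level of each member (CPM, vertical axis, a separate linear scale for each gene) in SC, SH2 and SH3; points are replicates and bars the mean with its SD (n = 3). All hairpin libraries of ZEB2 lie above all SC libraries, and CDH1 and CDH2 rest on at most 14 counts in a library.

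SH2 and SH3 were also compared directly, since a call with 1 hairpin alone does not show that the hairpins differ. In RNA 6 members differed: VIM, SNAI1, SNAI2, FN1 and CD44 were higher in SH2 than in SH3, and CDH2 was lower. The shares over all genes were 18.9% higher and 20.4% lower. In footprints 1 member, CD44, was called, higher in SH2, against 12.1% of all genes higher and 11.6% lower. The RNA count of 6 became 3 without SH2 replicate 3 or SH3 replicate 2, and the footprint count of 1 became 3 without SH2 replicate 2 and 0 without SH3 replicate 2. The members' median log2 difference, SH2 minus SH3, was 0.54 in RNA and 0.41 in footprints, beside 0.00466 and 0.00378 over all genes tested.

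**Figure D3:**
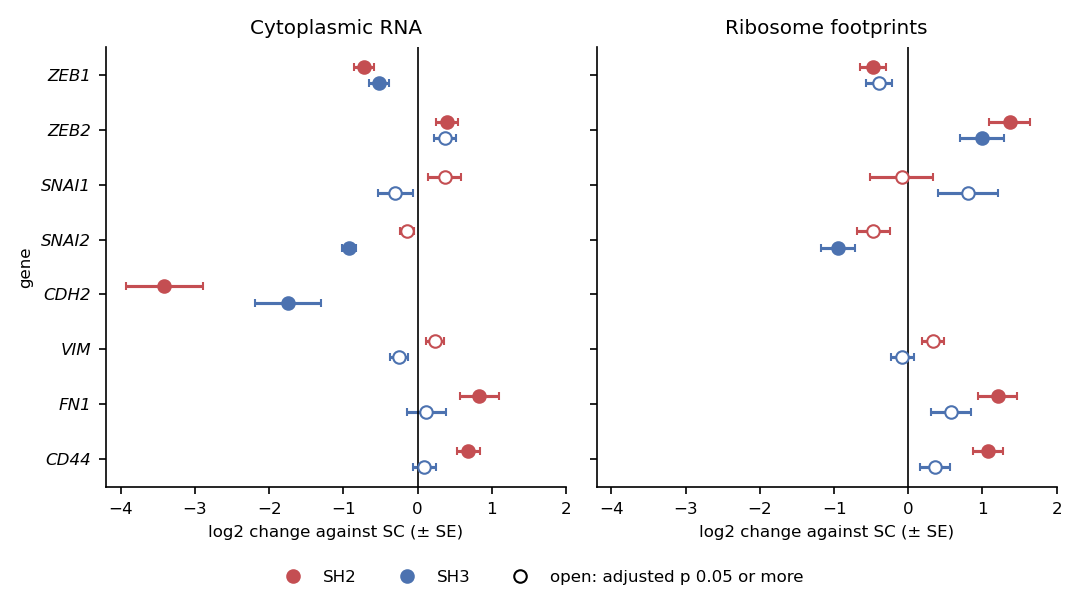
Log2 change of each member against SC (horizontal axis, points with 1 SE) in RNA and in footprints, for SH2 and SH3. CDH2 has the lowest RNA value with each hairpin (-3.41 and -1.75) and no footprint point, because it did not pass the filter there; ZEB2 has the highest SH2 footprint value at 1.36.

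ZEB1 encodes a zinc finger and homeodomain repressor of epithelial genes. Values below are listed for replicates 1, 2 and 3 in turn. ZEB1 RNA stood at 135, 146 and 136 CPM in SC, at 68.7, 108 and 76.4 in SH2 and at 95.8, 97.8 and 98.8 in SH3. Every hairpin library was below every SC library, and SH2 replicate 2 was the highest of the hairpin libraries. The log2 change was -0.72 in SH2 (SE 0.13, edgeR adjusted p 0.000344), against -0.51 under SH3 (SE 0.13, edgeR adjusted p 0.00509). Between SH2 and SH3 the log2 difference was -0.21 (edgeR adjusted p 0.230), and without SH2 replicate 2 it was -0.40 and passed the threshold (adjusted p 0.00499). ZEB1 footprints stood at 93.3, 71.6 and 92.8 CPM in SC, at 79.2, 51.5 and 57.3 in SH2 and at 65.0, 73.3 and 59.6 in SH3. The lowest SC library lay within the range of both hairpins. Footprints changed by -0.47 in SH2 (SE 0.17, edgeR adjusted p 0.0364), against -0.39 under SH3 (SE 0.18, edgeR adjusted p 0.0940). The SH2 footprint call was lost in 6 of 11 alternatives, among them DESeq2 (adjusted p 0.0512), with adjusted p from 0.00785 to 0.179. It was lost without SC replicate 1 (adjusted p 0.0899), SC replicate 3 (0.132), SH2 replicate 2 (0.179) or SH2 replicate 3 (0.129), and when SH2 and SC were fitted alone (0.0673). Without SC replicate 2 the SH3 footprint value passed (-0.49, adjusted p 0.0394).

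ZEB2, the second ZEB family repressor, rose in footprints with both hairpins. ZEB2 RNA stood at 22.6, 19.1 and 19.7 CPM in SC, at 27.6, 31.5 and 21.7 in SH2 and at 31.3, 22.4 and 25.5 in SH3, so that each hairpin had 1 library within the SC range. Its RNA changed by 0.40 in SH2 (SE 0.15, edgeR adjusted p 0.0353), against 0.37 under SH3 (SE 0.15, edgeR adjusted p 0.0552). The SH2 RNA call was lost without SC replicate 2, SC replicate 3, SH2 replicate 1 or SH2 replicate 2 (adjusted p 0.0984, 0.0990, 0.0750 and 0.174). The SH3 RNA value passed without SC replicate 1 (adjusted p 0.0436), without SH3 replicate 2 (0.0404) and with no low-count filter (0.0353). In footprints the groups were separate. ZEB2 footprints stood at 6.49, 3.37 and 4.79 CPM in SC (40, 8 and 27 counts), at 16.7, 11.4 and 12.3 in SH2 (45, 49 and 38 counts) and at 10.5, 12.3 and 8.06 in SH3 (18, 36 and 23 counts). The lowest hairpin library exceeded the highest SC library. The footprint change was 1.36 in SH2 (SE 0.28, edgeR adjusted p 0.00109), against 0.99 under SH3 (SE 0.30, edgeR adjusted p 0.0170). The SH3 call was lost without SC replicate 3 (0.95, adjusted p 0.0577) or SH3 replicate 2 (0.83, adjusted p 0.102). Between SH2 and SH3 no ZEB2 difference passed the threshold, with 0.03 in RNA (edgeR adjusted p 0.901) and 0.37 in footprints (adjusted p 0.363).

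SNAI1 encodes Snail, a zinc finger repressor of E-cadherin, and had few counts. SNAI1 RNA stood at 2.12, 2.23 and 2.36 CPM in SC (52, 54 and 60 counts), at 3.22, 2.41 and 3.02 in SH2 (82, 64 and 85 counts) and at 2.40, 1.59 and 1.46 in SH3 (60, 38 and 38 counts). The SH2 libraries lay above all others, the lowest of them narrowly, and SH3 spanned the SC range. Neither hairpin differed from SC past the threshold, with log2 changes of 0.36 in SH2 (SE 0.23, edgeR adjusted p 0.175), against -0.30 under SH3 (SE 0.24, edgeR adjusted p 0.303). SNAI1 RNA was higher in SH2 than in SH3 by 0.66 (SE 0.23, edgeR adjusted p 0.0341), a call lost without SH2 replicate 1 or 3 (adjusted p 0.0975 and 0.0881) or SH3 replicate 2 or 3 (0.101 and 0.137). SNAI1 footprints held 20, 11 and 12 counts in SC, 3, 16 and 11 in SH2 and 9, 15 and 17 in SH3, or 3.25, 4.63 and 2.13 CPM, 1.11, 3.73 and 3.56 CPM, and 5.27, 5.14 and 5.96 CPM. In footprints the order was turned, with the SH3 libraries above all SC and all SH2 libraries. The footprint changes were -0.09 in SH2 (SE 0.42, edgeR adjusted p 0.884), against 0.81 under SH3 (SE 0.40, edgeR adjusted p 0.127), and the SH2 to SH3 difference was -0.89 (SE 0.42, edgeR adjusted p 0.134). None of these footprint differences passed the threshold, and they rest on at most 20 counts a library.

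SNAI2 encodes Slug, the second SNAIL family repressor in the set. SNAI2 RNA stood at 43.0, 41.0 and 42.0 CPM in SC, at 37.4, 40.1 and 36.6 in SH2 and at 22.8, 20.8 and 22.5 in SH3. The groups did not overlap: SH3 was lowest, and SH2 lay just below SC. The change was -0.93 in SH3 (SE 0.09, edgeR adjusted p 3.89e-06), against -0.14 under SH2 (SE 0.09, edgeR adjusted p 0.195). SH2 exceeded SH3 by 0.79 (SE 0.09, edgeR adjusted p 2.75e-05). SNAI2 footprints stood at 49.2, 33.7 and 38.7 CPM in SC, at 35.5, 20.0 and 34.3 in SH2 and at 21.1, 18.8 and 23.8 in SH3. All SH3 footprint libraries were below all SC libraries, while SH2 overlapped both groups. The footprint change was -0.95 in SH3 (SE 0.23, edgeR adjusted p 0.00481), against -0.47 under SH2 (SE 0.22, edgeR adjusted p 0.0910). With the replicate number as a block, the SH2 footprint value passed (-0.45, adjusted p 0.0369), as it did without SC replicate 2 (-0.57, adjusted p 0.0429). The footprint difference between hairpins was 0.48 (edgeR adjusted p 0.162), and it passed without SH2 replicate 2 (0.72, adjusted p 0.0367).

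CDH1, encoding E-cadherin, the adhesion molecule of epithelial junctions, was at the edge of detection. Its RNA counts were 11, 6 and 8 in SC, 2, 5 and 2 in SH2 and 4, 3 and 1 in SH3. Every hairpin library was lower than every SC library. Over the pooled counts, 25 for SC against 9 for SH2 and 8 for SH3, the SH2 level was 33.3% of SC (exact 95% counting interval 13.7% to 73.8%) and the SH3 level 31.7% (12.4% to 72.5%). These intervals, like the others given from counts, cover counting error only. With no filter on low counts, edgeR gave log2 changes of -1.54 in SH2 (SE 0.63, adjusted p 0.0445) and -1.60 in SH3 (SE 0.65, adjusted p 0.0483). In the authors' deposited table the CDH1 RNA change was -1.60 in SH2 (adjusted p 0.0971) and -1.67 in SH3 (adjusted p 0.0933), neither past the threshold. CDH1 footprints held 1 count in 1 SC library, 1 count in 1 SH2 library and 0 in the other libraries. In SH3 a pooled count of 0 has an exact 95% counting interval up to 0.493 CPM, above the SC level, so no footprint difference was detectable at this depth.

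CDH2 encodes N-cadherin, which mesenchymal cells carry in place of E-cadherin. CDH2 RNA stood at 6.86, 1.48 and 2.99 CPM in SC (168, 36 and 76 counts), at 0.510, 0.339 and 0.213 in SH2 (13, 9 and 6 counts) and at 1.40, 0.965 and 0.996 in SH3 (35, 23 and 26 counts). The groups did not overlap and stood in the order SC, SH3, SH2, with a wide spread in SC. The log2 change was -3.41 in SH2 (SE 0.52, edgeR adjusted p 7.15e-05), against -1.75 under SH3 (SE 0.45, edgeR adjusted p 0.00452). With SC replicate 1, the highest library, left out, SH2 gave -2.68 (edgeR adjusted p 0.00132) and SH3 gave -1.01 (adjusted p 0.0247). The SH2 minus SH3 difference was -1.66 (SE 0.58, edgeR adjusted p 0.0359), a call lost when any of SH2 replicates 2 and 3 or the 3 SH3 replicates was left out (adjusted p 0.0578 to 0.146). CDH2 footprints held 10, 14 and 9 counts in SC, 1, 1 and 0 in SH2 and 0, 0 and 5 in SH3. The pooled level, 33 counts in SC and 2 in SH2, was 8.52% of SC in SH2 (exact 95% counting interval 0.990% to 33.3%). In SH3, with 5 pooled counts, it was 28.7% (8.74% to 73.9%). Both levels were below SC beyond counting error, but 1 SH3 library, at 1.75 CPM, lay within the range of the SC libraries.

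VIM encodes vimentin, the intermediate filament protein of mesenchymal cells. VIM RNA stood at 6175, 4965 and 5598 CPM in SC, at 6173, 6346 and 7223 in SH2 and at 4081, 5296 and 4735 in SH3. Both hairpins overlapped SC, and the SH2 libraries were all above the SH3 libraries. The log2 change from SC was 0.24 in SH2 (SE 0.12, edgeR adjusted p 0.0977), against -0.25 under SH3 (SE 0.12, edgeR adjusted p 0.0970). The SH3 value passed without SC replicate 2 (-0.32, adjusted p 0.0460) or SH3 replicate 2 (-0.37, adjusted p 0.0299). The difference between SH2 and SH3 was 0.48 (SE 0.12, edgeR adjusted p 0.00568). VIM footprints stood at 5400, 7033 and 7133 CPM in SC, at 9063, 6787 and 8782 in SH2 and at 5227, 6626 and 6662 in SH3. SH2 was again above SH3 in every library. The footprint changes were 0.33 in SH2 (SE 0.15, edgeR adjusted p 0.0873), against -0.08 under SH3 (SE 0.15, edgeR adjusted p 0.715), and the difference between hairpins was 0.41 (edgeR adjusted p 0.0600), none past the threshold. Without SH2 replicate 2 the SH2 value (0.46, adjusted p 0.0306) and the difference (0.54, adjusted p 0.0290) passed. With no low-count filter both also passed (adjusted p 0.0458 and 0.0193), and the difference passed when only SH2 and SH3 were fitted (0.0311).

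FN1 encodes fibronectin, a matrix glycoprotein bound by integrins. FN1 RNA stood at 279, 206 and 191 CPM in SC, at 240, 445 and 520 in SH2 and at 186, 209 and 340 in SH3. SH2 replicates 2 and 3 exceeded all SC libraries and SH2 replicate 1 did not. FN1 RNA changed by 0.83 in SH2 (SE 0.26, edgeR adjusted p 0.0123), a call lost without SH2 replicate 2 (0.75, adjusted p 0.0537) or SH2 replicate 3 (0.58, adjusted p 0.0972). In SH3 the change was 0.12 (SE 0.26, edgeR adjusted p 0.717). SH2 exceeded SH3 by 0.71 (edgeR adjusted p 0.0410), which was lost with DESeq2 (adjusted p 0.102) and without SH2 replicate 2 or 3 or SH3 replicate 1 or 2 (adjusted p 0.105 to 0.199). FN1 footprints stood at 105, 173 and 141 CPM in SC, at 333, 205 and 422 in SH2 and at 138, 190 and 289 in SH3. All SH2 footprint libraries were above all SC libraries, and SH3 overlapped both. Footprints rose by 1.20 in SH2 (SE 0.27, edgeR adjusted p 0.00184). The SH3 footprint value was 0.58 (SE 0.27, edgeR adjusted p 0.104), which passed with no low-count filter (adjusted p 0.00374) and without SC replicate 2 (0.76, adjusted p 0.0403) or SH3 replicate 1 (0.80, adjusted p 0.0361). The footprint difference between hairpins was 0.63 (edgeR adjusted p 0.0964). It passed in 5 of 11 alternatives: with no low-count filter (adjusted p 0.00236), with the replicate block (0.0344), with only SH2 and SH3 fitted (0.0493), and without SH2 replicate 2 (0.87, adjusted p 0.0291) or SH3 replicate 3 (0.95, adjusted p 0.0277).

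CD44 encodes the hyaluronan receptor used as a marker of mesenchymal and stem-like breast cancer cells. CD44 RNA stood at 404, 289 and 256 CPM in SC, at 556, 510 and 454 in SH2 and at 376, 351 and 282 in SH3. The SH2 libraries lay above all others, while SH3 and SC overlapped. RNA rose by 0.68 in SH2 (SE 0.16, edgeR adjusted p 0.00174), with 0.09 in SH3 (SE 0.15, edgeR adjusted p 0.654). CD44 footprints stood at 557, 1007 and 729 CPM in SC, at 1450, 2030 and 1340 in SH2 and at 1132, 1021 and 795 in SH3, with SH2 again above all other libraries. Footprints rose by 1.07 in SH2 (SE 0.21, edgeR adjusted p 0.000616), with 0.36 in SH3 (SE 0.20, edgeR adjusted p 0.180), where the value without SC replicate 2 was 0.61 and passed (adjusted p 0.0173). SH2 exceeded SH3 by 0.59 in RNA (SE 0.16, edgeR adjusted p 0.00824) and 0.71 in footprints (SE 0.20, edgeR adjusted p 0.0192). The footprint difference was lost without SH2 replicate 2 (adjusted p 0.110), SH3 replicate 2 (0.0558) or SH3 replicate 3 (0.0919).

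Translational efficiency, the footprint change minus the RNA change, asks whether ribosome load moved apart from RNA. Of 8 members tested, 0 were called in SH2, in SH3 or between them. Over 12531 genes, 1.44% were called higher and 2.46% lower in SH2, 0.375% and 0.311% in SH3, and 0% and 0.016% between SH2 and SH3. With the replicate number as a block, 755 genes were called in SH2 in place of 489, none of the members among them. At an unadjusted p under 0.05 edgeR gave 1 member in each comparison, ZEB2 in SH2 and SNAI1 in the others, and DESeq2 called 1 in SH2, ZEB2, and 0 in the others, where it gave SNAI1 no adjusted p. The members' median log2 change in efficiency was 0.16 in SH2 and 0.24 in SH3, beside -0.02 and -0.04 over all genes. The ratio of footprint CPM to RNA CPM for ZEB2, taken between libraries of the same replicate number, was 0.288, 0.176 and 0.243 in SC, 0.603, 0.363 and 0.566 in SH2 and 0.337, 0.549 and 0.316 in SH3. All hairpin ratios of ZEB2 exceeded all SC ratios in these pairs. Deviations from group means did not bear out the pairs for replicates 1 and 2 of SC and SH2. Same-numbered RNA and footprint libraries correlated at -0.490 and -0.460 in SC and -0.304 and -0.313 in SH2. RNA replicate 1 with footprint replicate 2 gave 0.576 and 0.563, and the reverse 0.458 and 0.497. Same-numbered SH3 libraries, and replicate 3 of SC and SH2, correlated positively. Paired across numbers, SC footprint replicate 1 (6.49 CPM) over SC RNA replicate 2 (19.1 CPM) gives a ZEB2 ratio above SH3 replicates 1 and 3. The separation of SH3 from SC in ZEB2 ratios thus rests on the same-numbered pairs. Ratios of other pairs were not tested. The change in ZEB2 efficiency was 0.94 in SH2 (SE 0.31, edgeR adjusted p 0.102), against 0.62 under SH3 (SE 0.34, edgeR adjusted p 0.467). In DESeq2 the SH2 value was 0.95 with an adjusted p of 0.0466, and over 12 alternatives its adjusted p ran from 0.0466 to 0.264.

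**Figure D4:**
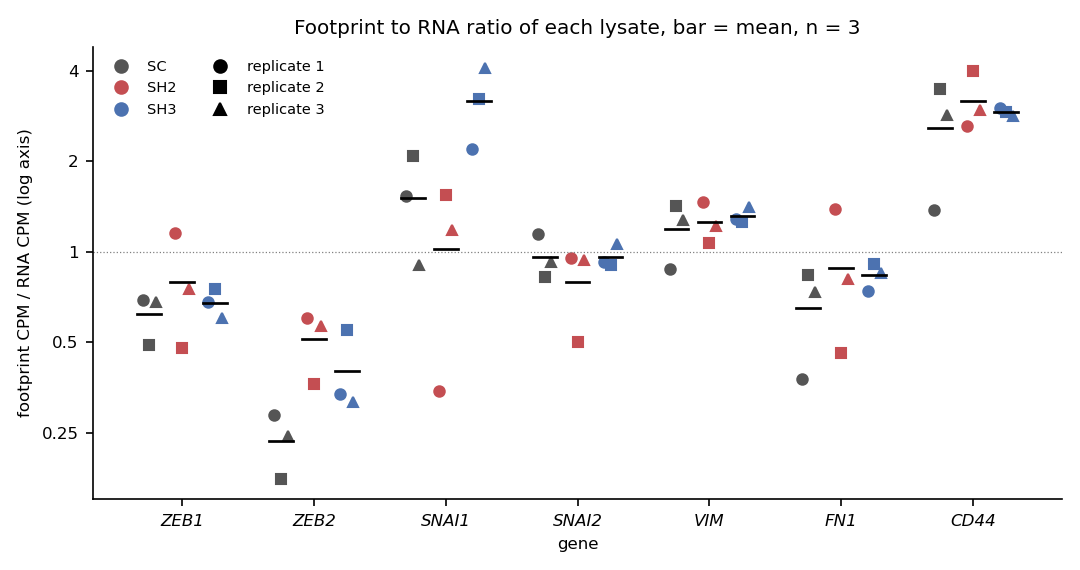
Ratio of footprint CPM to RNA CPM (vertical axis, log2 scale) for the 7 members tested in both kinds of library, by treatment; each point is a pair of libraries with the same replicate number. In these pairs ZEB2 ratios are higher in SH2 and SH3 than in SC, and SNAI1 ratios are highest in SH3. The ZEB2 separation of SH3 from SC does not hold when SC replicates 1 and 2 are paired across numbers.

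The SNAI1 ratio was 1.53, 2.08 and 0.903 in SC, 0.345, 1.55 and 1.18 in SH2 and 2.20, 3.22 and 4.09 in SH3. The SH3 ratios of these same-numbered pairs were above all others. SNAI1 efficiency changed by -0.46 in SH2 (edgeR adjusted p 0.661), against 1.12 under SH3 (SE 0.46, edgeR adjusted p 0.285), and SH2 minus SH3 was -1.58 (SE 0.47, edgeR adjusted p 0.165), none past the threshold. The efficiency changes of the other members were 0.08 and 0.18 for VIM in SH2 and SH3, 0.23 and 0.13 for ZEB1, -0.36 and -0.02 for SNAI2, 0.36 and 0.48 for FN1 and 0.39 and 0.29 for CD44. CDH2 efficiency is not given, because no SH2 footprint library held more than 1 count.

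In SC the members lay at different places among the 10335 genes measured in both library kinds, whose median ratio of footprint CPM to RNA CPM was 0.888. The ratio of group means was 2.42 for CD44, above 96.3% of genes, 1.49 for SNAI1 (81.0%) and 1.17 for VIM (67.1%). It was 0.965 for SNAI2 (55.4%), 0.619 for FN1 (30.6%), 0.617 for ZEB1 (30.4%) and 0.239 for ZEB2, above 5.30% of genes. By this uncorrected ratio ZEB2 had few footprints for its RNA, and CD44 many. Neither kind of CPM was corrected for transcript or coding length, and how far lengths shape these ranks was not tested.

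The genes whose RNA pattern over the 9 RNA libraries was most like ZEB1 were TBL1XR1 (Pearson r 0.980) and FAM171B (r 0.980). TBL1XR1 changed by -0.54 in SH2 and -0.40 in SH3, and FAM171B by -1.53 and -1.25. For CDH2 they were PMPCA (r 0.991), with -0.73 and -0.38, and NOP10 (r 0.975), with -0.58 and -0.34. These correlations are a description over libraries that share 3 treatments. Without SC replicate 1 the SH3 call of PMPCA was lost (adjusted p 0.0572).

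Other genes of the pathway were read from 7 lists, which were chosen with earlier results of these data known. Their counts of RNA calls stand beside the shares of all genes given above. Other transcription factors of the transition gave 4 higher calls and 1 lower with SH2, and 1 higher and 2 lower with SH3, of 9 tested. SOX9, a transcription factor of stem and progenitor cells, rose with both, from a mean of 72.9 ± 3.72 CPM to 136 ± 15.2 under SH2 and 101 ± 1.26 under SH3 (SD, n = 3), log2 changes of 0.90 and 0.47 (edgeR adjusted p 3.25e-06 and 0.000976). SOX9 footprints rose by 1.01 and 0.87. The list's median RNA change was 0.31 in SH2 and -0.15 in SH3. TWIST2 and GSC were not analysed here.

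Mesenchymal matrix and cytoskeleton markers moved in both directions, with 8 higher and 5 lower calls with SH2, and 7 higher and 4 lower with SH3, of 18 tested. ACTA2, encoding smooth muscle actin, fell from a mean of 2.57 ± 0.568 CPM to 0.533 ± 0.203 under SH2 and 0.532 ± 0.0616 under SH3 (SD, n = 3), a log2 change of -2.26 with each hairpin (edgeR adjusted p 2.14e-05 and 3.89e-05). LOX, which cross-links collagen, changed by -0.97 and -2.52 (edgeR adjusted p 0.00281 and 4.01e-06). NT5E, encoding the surface nucleotidase CD73, rose from a mean of 325 ± 35.4 CPM to 857 ± 46.0 under SH2 and 641 ± 66.9 under SH3, by 1.40 and 0.98. PDGFRB, a receptor of platelet-derived growth factor, rose by 1.25 and 0.97. The list's median RNA change was 0.24 in SH2 and 0.09 in SH3.

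**Figure D5:**
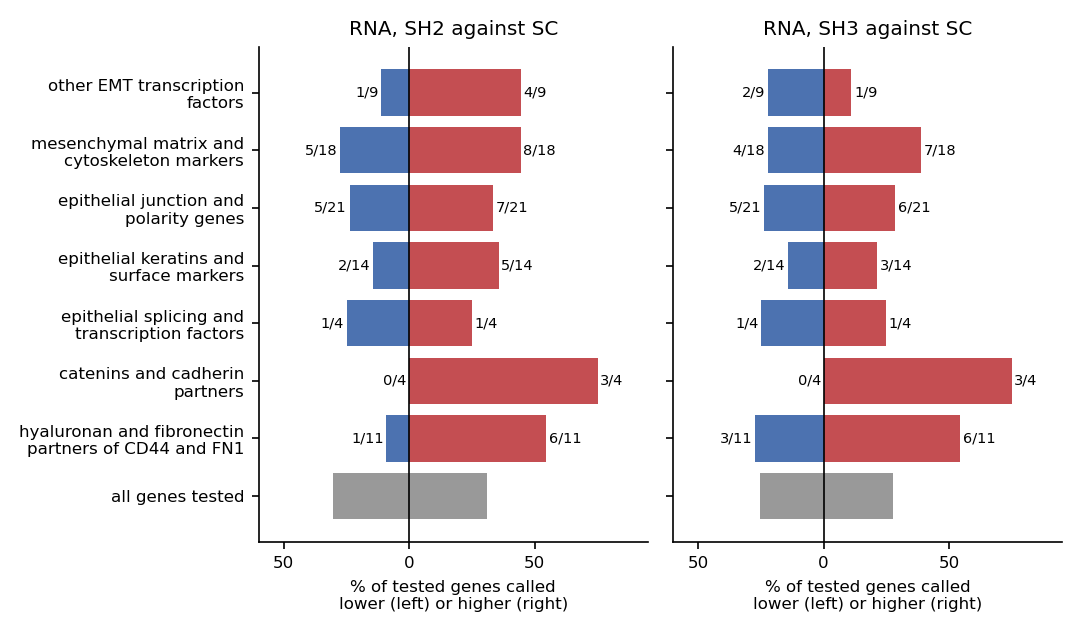
Percent of tested genes called higher (right of 0) and lower (left of 0) in RNA, in SH2 and SH3 against SC. Bars are the 7 wider lists and all genes tested, and labels beside list bars give genes called of those tested. Higher and lower calls stand side by side in most lists; the catenin list has 3 higher and none lower of 4 tested with each hairpin.

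Epithelial junction and polarity genes were also mixed. Of 21 tested, SH2 had 7 higher and 5 lower calls and SH3 had 6 and 5, with median changes of -0.14 and 0.03. TJP1, encoding the tight junction scaffold ZO-1, rose from a mean of 132 ± 15.9 CPM to 222 ± 19.0 under SH2 and 288 ± 19.8 under SH3, by 0.74 and 1.12 (edgeR adjusted p 4.21e-05 and 2.61e-06). Its footprints rose by 1.01 and 1.29. TJP3 rose by 1.83 and 1.53 and the desmosomal plaque gene PKP3 by 0.98 and 0.76. Larger falls came with 1 hairpin. OCLN RNA changed by -2.51 in SH2 (edgeR adjusted p 3.84e-08) and 0.14 in SH3 (adjusted p 0.431). Its footprints changed by -3.05 in SH2. DSP RNA changed by -1.14 in SH3 (edgeR adjusted p 3.47e-05) and -0.16 in SH2 (adjusted p 0.379). CLDN7, a claudin of tight junctions, changed by -0.85 and -0.98 in RNA (edgeR adjusted p 0.00589 and 0.00302) and by -0.83 and -0.96 in footprints.

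Among epithelial keratins and surface markers, SH2 had 5 higher and 2 lower calls and SH3 had 3 and 2, of 14 tested, with median changes of 0.23 and -0.11. KRT18, a simple-epithelium keratin, rose by 0.41 and 0.46, and ELF3, an epithelial ETS factor of 1.20 ± 0.888 CPM in SC, by 1.83 and 2.06. Others of the list fell with 1 hairpin. ERBB3 changed by -0.95 in SH2 (edgeR adjusted p 0.00754). KRT7 went from a mean of 405 ± 30.2 CPM in SC to 274 ± 44.8 in SH3 (SD, n = 3). Of the epithelial splicing and transcription factors only 4 passed the filter, and 1 rose and 1 fell with each hairpin, with medians of -0.32 and 0.10. KLF4, a zinc finger factor of epithelial differentiation, was the one that rose with both, from a mean of 48.1 ± 1.72 CPM to 162 ± 12.6 under SH2 and 149 ± 6.21 under SH3 (SD, n = 3), by 1.75 and 1.63 (edgeR adjusted p 1.39e-08 and 5.39e-08). Its footprints rose by 1.29 and 1.49. OVOL2 was not analysed here.

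Catenins and other partners of the cadherin tail gave 3 of 4 higher with each hairpin, with medians of 0.42 and 0.39. CTNNB1, encoding beta-catenin, rose from a mean of 464 ± 7.66 CPM to 804 ± 23.2 under SH2 and 811 ± 24.5 under SH3, by 0.79 and 0.81 (edgeR adjusted p 2.36e-06 and 4.20e-06). CTNNB1 footprints rose by 0.76 and 0.72. VCL, encoding vinculin, rose by 0.45 and 0.36, and CTNNA1, encoding alpha-catenin, by 0.40 and 0.23. The SH3 call of CTNNA1 was lost in 7 of 11 alternatives, each of the 6 SC and SH3 libraries left out among them (adjusted p 0.0570 to 0.179 without 1 library).

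Partners of CD44 and FN1 in hyaluronan and fibronectin binding gave 6 higher calls and 1 lower with SH2, and 6 higher and 3 lower with SH3, of 11 tested, with medians of 0.47 and 0.61. ITGA5, the alpha chain of the main fibronectin receptor, rose from a mean of 165 ± 51.4 CPM to 523 ± 126 under SH2 and 381 ± 77.1 under SH3, by 1.66 and 1.20 (edgeR adjusted p 1.50e-05 and 0.000311). Footprints of ITGA5 rose by 1.70 and 1.14. ITGAV, a further integrin alpha chain, rose by 1.02 and 1.14. HMMR, a hyaluronan-binding protein of the mitotic spindle, changed by -1.22 and -1.56. CEMIP, a protein of hyaluronan breakdown, had 0.74 and 0.92, with the SH2 call lost without SC replicate 1, SH2 replicate 2 or SH2 replicate 3 (adjusted p 0.0990, 0.167 and 0.0523) and the SH3 call lost without SH3 replicate 2 (0.0797).

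In translational efficiency, of 79 genes of the 7 lists tested, 1 was called by edgeR in SH2, TPM1 (tropomyosin) at -0.68, and 0 in SH3 and between the hairpins. At an unadjusted p under 0.05 there were 14, 5 and 5, and DESeq2 called 2, 1 and 0.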

How the data were processed

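The authors deposited 1 table of raw, whole-number read counts per gene for 18 libraries, beside DESeq2-normalized signal, log2 fold changes and p-values of their own, per the file headers. The submitters' processing notes name Bowtie 1.2.2 and DESeq2. Genome build, annotation and strand setting are not given in the sources used here. Counts entered edgeR 4.0.16 (R 4.3.3): filterByExpr, TMM scaling, quasi-likelihood tests, two-sided, with Benjamini-Hochberg adjustment over all genes tested. RNA was fitted over 9 libraries, footprints over 9, and efficiency over 18 as an interaction. Standard errors are the log2 change over the square root of F. The procedure was tested on simulated data with large changes in well-counted genes, which does not cover small changes or low counts. The members and lists were chosen with earlier results of these data known. All members are named. From each list up to 4 genes are named, those called in RNA in the same direction with both hairpins, largest smaller change first. Outside this rule, ERBB3, KRT7, OCLN and DSP are named for falls with 1 hairpin. For members called in both, the 2 most similar genes by Pearson r are named. Replicates of a group differed beyond counting noise (chi-square per degree of freedom 3.38 to 56.3). Deviations from group means correlated at 0.295 to 0.358 (RNA) and 0.249 to 0.297 (footprints) between SC and SH2 libraries of the same replicate number, over 0.1 in every pair, so the numbers were taken to pair these groups. This was read from the data and is not in the labels. Pairs with SH3 did not meet this. The tests reported above used no block, and the replicate number as a block was run only as an alternative. Alternatives were DESeq2 1.42.0, other scaling, no filter, fewer groups, a block, and each replicate left out.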

Additional observations from a re-analysis of the deposited data

Results flagged for a closer look

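VIM and SNAI1 RNA differed between SH2 and SH3 while lying on opposite sides of SC. VIM RNA was 0.484 log2 units higher in SH2 than in SH3 (edgeR adjusted p 0.00568), from 0.238 in SH2 and -0.246 in SH3 against SC, with 3 of 3 SH2 libraries above all SH3 libraries. SNAI1 RNA was 0.665 higher in SH2 than in SH3 (edgeR adjusted p 0.0341), from 0.365 and -0.300 against SC. Its libraries were barely separate, with the lowest SH2 library at 2.408 CPM and the highest SH3 library at 2.400. The SNAI1 call was lost without SH2 replicate 1 or 3 or SH3 replicate 2 or 3, while the VIM call was kept in all 11 alternatives. Neither gene was called against SC with either hairpin.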

How the results depend on the processing

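Each log2 change printed for a member that passed the filter was recomputed under 11 alternatives, or 12 for efficiency against SC apart from SNAI1 in SH3 with 11. Between hairpins only the efficiency of SNAI1 was recomputed in this way. Of these values 593 kept their direction and side of the threshold, 27 newly passed it, 31 no longer passed and 22 changed sign. Calls kept in all 11 were RNA of ZEB1 and CDH2 with both hairpins, CD44 in SH2, SNAI2 in SH3 and VIM, SNAI2 and CD44 between hairpins, and footprints of ZEB2, FN1 and CD44 in SH2 and SNAI2 in SH3. The replicate block changed 1 member call in SH2 against SC, that of SNAI2 footprints. For the groups that replicate numbers did not pair, same-numbered correlations were -0.0834 to 0.230 (RNA) and -0.0589 to 0.258 (footprints) for SC with SH3, where 4 and 2 of 6 samples correlated best with their own number. They were 0.0384 to 0.435 and -0.117 to 0.314 for SH2 with SH3, again with 4 and 2 of 6. There the replicate block brought past the threshold ZEB2 RNA in SH3 (0.36, adjusted p 0.0275) and, between hairpins, footprints of VIM (0.42, adjusted p 0.0339) and FN1 (0.66, adjusted p 0.0344), and it changed no other member call.
With no low-count filter the members called numbered 5 in RNA of SH3 (3 as reported), 4 in footprints of SH3 (2) and 3 in footprints between hairpins (1). The last was also 3 with only the groups compared and 3 with the replicate block. DESeq2 called 1 member in efficiency of SH2 (0). With each replicate left out in turn, the members called ranged from 3 to 5 in RNA of SH2, 3 to 5 in RNA of SH3, 3 to 5 in RNA between hairpins, 1 to 5 in footprints of SH3 and 0 to 3 in footprints between hairpins. Sign changes were confined to values not called. With a replicate left out these ranged in RNA from -0.22 to 0.28 for FN1 and -0.043 to 0.29 for CD44 in SH3, and -0.072 to 0.19 for ZEB2 between hairpins. In footprints they ranged from -0.36 to 0.24 for SNAI1 in SH2, -0.18 to 0.040 for VIM in SH3 and -0.28 to 0.049 for ZEB1 between hairpins. In efficiency they ranged from -0.10 to 0.20 for VIM and -0.090 to 0.57 for ZEB1 in SH2, and in SH3 from -0.0015 to 0.30 for VIM, -0.021 to 0.23 for ZEB1, -0.11 to 0.15 for SNAI2 and -0.094 to 0.58 for CD44. SNAI2 efficiency in SH3 was 0.046 with the replicate block and 0.013 with the lysate block. The lysate block joins RNA and footprint libraries of the same treatment and replicate number. Correlations did not bear out this joining for replicates 1 and 2 of SC and SH2. Over all genes, efficiency calls in SH2 numbered 489, against 930 in DESeq2, 755 with the replicate block, 191 with the lysate block, 184 with only the groups compared and 110 without SH2 replicate 3. In SH3 they numbered 86, against 383, 150, 23 and 46 under the same settings and 10 without SC replicate 3. Between hairpins 2 genes were called, against 254 in DESeq2, 75 with the replicate block, 35 with no filter, 36 with only the groups compared and 0 with the lysate block. Footprint calls between hairpins went from 2459 to 1541 without SH3 replicate 2. Why these values moved was not tested. Of the list genes' values 494 stayed on their side of the threshold and 12 did not. Footprints of CDH1, CDH2 and SNAI1 rest on at most 20 counts a library, which limits what can be detected.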

Other observations

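In the authors' deposited table, the log2 change and p-value of the measure named RD are the same for SH2 and SH3 in all 17017 genes. For SNAI1 the authors' deposited table gives an RD value of 1.13 under both hairpins, while the footprint change minus the RNA change of the same deposited table is -0.49 in SH2 and 1.11 in SH3. For ZEB2 the authors' deposited table gives 0.63 under both, beside differences of 1.02 and 0.68 between its own footprint and RNA changes. The RD columns were not used here. In RNA the authors' deposited table has 5 members under an adjusted p of 0.05 in SH2 and 3 in SH3, the same genes as edgeR called. In footprints the authors' deposited table has 4 in SH2, of which 3 are shared with edgeR, CDH2 standing in place of ZEB1, and in SH3 the same 2 genes.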
